A study of Mus musculus with 30 samples.

Results

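Collagens, laminins and the proteins that join them into basement membranes were followed through 5 groups of sorted mouse islet cells. The members are the genes whose symbol has the form Col, number, a, number, or Lama, Lamb or Lamc with a digit, together with Fn1, Sparc, Nid1, Hspg2 and Fbn1. Of 17775 genes in the expression table, 38 that meet this description are reported, of which 29 are collagen chains, 4 are laminin chains and 5 are other proteins. Of these, 31 had enough signal to be tested (a log2 value of 5 or more in at least 4 libraries), among 16633 genes tested in all. The 7 left out were Col14a1, Col15a1, Col16a1, Col23a1, Col4a4, Col6a1 and Hspg2, each of which reached 5 in only 2 or 3 libraries.

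RNA-seq was made from cells isolated by FACS. The alpha Pdx1 DT group (6 libraries) held alpha cells of Glucagon-rtTA; TetO-Cre; R26YFP; CAG-Pdx1; RIP-DTR mice, collected 30 days after diphtheria toxin (DT), which was injected at 2 months of age. The alpha Pdx1 group (5 libraries) carried the same alleles without RIP-DTR, received no toxin and came from animals of 3 months. The alpha DT group (4 libraries) came from Glucagon-Venus; RIP-DTR mice, injected and collected on the same schedule as the alpha Pdx1 DT group. The beta group (7 libraries) came from 3-month-old Insulin-mCherry mice, and the alpha group (8 libraries) from 3-month-old Glucagon-Venus mice. RIP-DTR places the toxin receptor under the rat insulin promoter, so that toxin kills beta cells, and the glucagon promoter directs Pdx1, a transcription factor of beta cells, to alpha cells. The receptor transgene and the toxin always came together, Pdx1 always came with its driver and reporter alleles, and beta and alpha cells were sorted from different reporter strains. These contributions cannot be told apart here. The labels do not say whether libraries of a group came from separate mice, so p-values measure only the spread between these libraries.

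A basement membrane is a thin sheet of extracellular matrix built from a network of collagen IV and a network of laminin, which nidogen and the proteoglycan perlecan connect. Laminins are trimers of an alpha, a beta and a gamma chain, and cells bind them through integrins and dystroglycan. In mouse islets, the basement membrane around capillaries is known to be made largely by endothelial cells, and endocrine cells attach to it. Fibrillar collagens such as types I and III form the fibres of interstitial matrix and are typical products of fibroblasts and stellate cells, while collagen VI forms beaded microfilaments next to basement membranes.

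All libraries shared the same quartiles and the same maximum of 22.565 on the log2 scale, and their read depth is unknown. Pdx1 checked the labels first. It ranged from 10.8 to 12.6 in the Pdx1 groups apart from alpha Pdx1 5 (8.61) and alpha Pdx1 DT 5 (5.51), from 3.71 to 6.70 in alpha DT libraries and from 3.66 to 5.61 in alpha libraries 1 to 7, while the library labelled alpha 8 had 11.23. The library labelled alpha Pdx1 DT 5 correlated with alpha 4 at r = 0.993 over all genes, the highest of 435 pairs of libraries (median 0.898). Gcg stood at the maximum in beta 1 and beta 5, against 15.16 to 17.92 in the other beta libraries. Calls that changed when these 5 libraries were left out are given below. The mean of 9 alpha-cell markers had a median of 9.99 over beta and 14.74 over alpha libraries, and that of 11 beta-cell markers 15.52 over beta and 8.89 over alpha libraries. The ribosomal RNA entry Rn18s-rs5 ranged from 19.87 to 22.57 in alpha Pdx1 DT, 16.90 to 18.27 in alpha Pdx1, 19.27 to 20.54 in alpha DT, 19.27 to 19.87 in beta and 17.68 to 20.54 in alpha libraries.

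**Figure D1:**
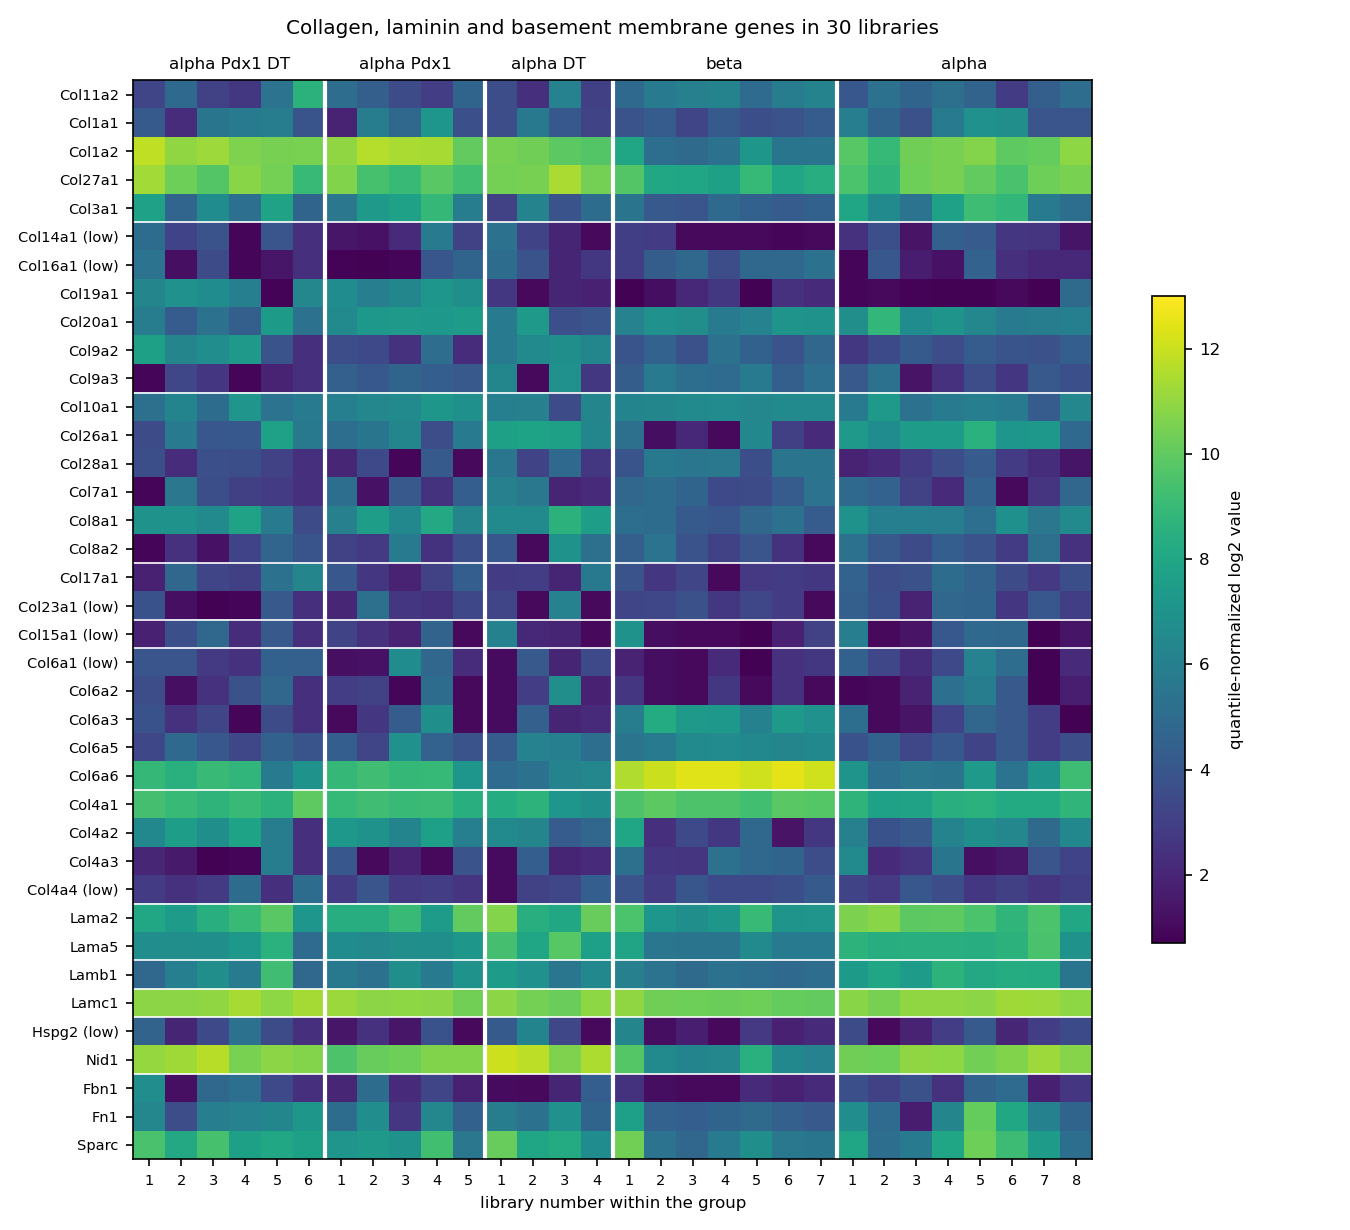
Log2 expression of the collagen, laminin and basement membrane genes (rows, grouped by role) in the 30 libraries (columns, grouped by alpha Pdx1 DT, alpha Pdx1, alpha DT, beta and alpha). Genes marked (low) were not tested. Col6a6 is highest in the beta libraries (11.54 to 12.50), where Nid1 and Col1a2 are lower than in the alpha libraries.

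Beta cells and alpha cells differed in the composition of this gene set. Beta cells had higher collagen VI chains Col6a6, Col6a3 and Col6a5 and higher Col4a1. Alpha cells had higher Nid1, Col1a2 and the laminin chains Lama5, Lamb1, Lama2 and Lamc1. With limma and Benjamini-Hochberg adjustment over all genes tested (threshold 0.05), 17 of 31 members passed, 6 higher and 11 lower in beta cells, where 34.5% of all tested genes passed (16.9% higher, 17.6% lower). The median log2 fold change of the members was -0.97, beside -0.00 over all genes. How often all genes lack overlap between groups was not counted, here or in the comparisons below. Leaving out the 5 libraries named above gave 18 members, against 31.8% of all genes; Sparc and Col19a1 gained a call and Col9a3 lost one.

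Col6a6 encodes a collagen VI chain. Its log2 value in beta libraries had a lowest, median and highest of 11.54, 12.12 and 12.50, against 5.21, 6.32 and 9.17 in alpha libraries. All beta libraries lay above all alpha libraries, the highest of which was the library labelled alpha 8. Its log2 fold change was 5.63 ± 0.50 (SE; limma, adjusted p = 2.71e-10). Col6a3, which encodes another chain of this collagen, had 5.92, 7.28 and 8.28 in beta libraries and 0.76, 3.05 and 5.13 in alpha libraries, and the groups did not overlap. The lowest beta values of Col6a3 were those of beta 1 and beta 5. Of the 9 libraries in which Col6a3 reached 5, 7 were beta libraries, so it was tested only through them. It rose by 4.12 ± 0.76 (limma, adjusted p = 6.19e-05). Col6a5 had 5.45, 6.44 and 6.61 in beta libraries and 2.92, 3.69 and 4.52 in alpha libraries, again without overlap, a difference of 2.52 ± 0.44 (limma, adjusted p = 2.34e-05). The chains Col6a1 and Col6a2, which assemble with Col6a3 in the classical collagen VI molecule, did not follow. Col6a2 averaged 1.71 ± 0.83 in beta (SD, n = 7) and 2.69 ± 2.05 in alpha libraries (SD, n = 8) and was not called (limma, adjusted p = 0.407). Col6a1, which was not tested, was below 5 in every beta library (highest 2.70) and reached 6.14 in alpha libraries.

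Collagen IV, the core collagen of basement membranes, was not uniform. Col4a1 had 9.26, 9.58 and 9.92 in beta libraries and 7.75, 8.31 and 8.73 in alpha libraries. The groups did not overlap, and the log2 fold change was 1.35 ± 0.24 (limma, adjusted p = 3.39e-05). Col4a2 encodes the partner chain, is transcribed from the opposite strand and starts next to Col4a1 on chromosome 8. It stood at 7.98, 2.39, 3.42, 2.69, 4.79, 1.36 and 2.70 in beta libraries 1 to 7, against 3.82, 6.14 and 6.80 (lowest, median, highest) in alpha libraries. Only beta 1 and beta 5 lay within or above the range of the alpha libraries. The log2 fold change of Col4a2 was -1.98 ± 0.77 (limma, adjusted p = 0.0438) and it passed in 5 of 15 fits that left out 1 library. Without the 5 libraries it was -2.97 ± 0.71 (limma, adjusted p = 0.00149), and with an offset of 32 on the linear scale it was -0.67 (limma, adjusted p = 0.209). Col4a3 did not pass.

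Laminin chains and nidogen were lower in beta cells. Nid1, the linker of laminin and collagen IV, had 9.76, 6.54, 6.26, 6.37, 8.49, 6.42 and 6.17 in beta libraries 1 to 7, against 10.30, 10.72 and 11.20 (lowest, median, highest) in alpha libraries. Every beta library was below every alpha library, with beta 1 and beta 5 nearest to them. Nid1 fell, with a log2 fold change of -3.55 ± 0.38 (limma, adjusted p = 9.53e-09), and -4.33 ± 0.24 without the 5 libraries. Lama5, the alpha chain of the main laminins of many adult basement membranes, had 5.43, 5.74 and 7.87 in beta libraries and 7.01, 8.42 and 9.47 in alpha libraries. The overlap came from beta 1 at the top of the beta group and alpha 8 at the bottom of the alpha group. Lama5 fell by 2.36 ± 0.42 on the log2 scale (limma, adjusted p = 2.96e-05), and by 3.02 ± 0.36 without the 5 libraries. Lamb1, a beta chain, had 4.93, 5.16 and 6.06 in beta libraries and 5.49, 8.05 and 8.67 in alpha libraries, and only alpha 8 lay within the beta range. Its log2 fold change was -2.45 ± 0.49 (limma, adjusted p = 0.000179). Lamc1, the gamma chain shared by most laminins, had a smaller difference, with overlapping groups and a log2 fold change of -0.60 ± 0.15 (limma, adjusted p = 0.00251) between 10.05, 10.28 and 10.96 in beta libraries and 10.46, 10.92 and 11.23 in alpha libraries. Lama2, named after its values were seen, completed the laminin chains that fell (-1.93 ± 0.50; limma, adjusted p = 0.00305), and its log2 fold change was -2.78 ± 0.40 without the 5 libraries.

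Among the fibrillar collagens, 3 of 5 fell and none rose. Col1a2, the second chain of collagen I, had 7.96, 5.13, 4.96, 5.27, 7.19, 5.47 and 5.45 in beta libraries 1 to 7, against 8.93, 10.20 and 10.91 (lowest, median, highest) in alpha libraries. The groups did not overlap, and beta 1 and beta 5 were again nearest to alpha. The log2 fold change of Col1a2 was -4.23 ± 0.36 (limma, adjusted p = 8.9e-11). Col1a1, the chain that makes up most of collagen I, averaged 3.91 ± 0.37 in beta (SD, n = 7) and 5.23 ± 1.31 in alpha libraries (SD, n = 8) and was not called (limma, adjusted p = 0.113). Col3a1, the chain of collagen III, had 3.93, 4.51 and 5.43 in beta libraries and 5.13, 7.18 and 9.16 in alpha libraries. Only beta 1 reached into the alpha range, and Col3a1 fell by 2.53 ± 0.63 on the log2 scale (limma, adjusted p = 0.00188). Col27a1, named after its values were seen, had a log2 fold change of -1.52 ± 0.33 (limma, adjusted p = 0.000428).

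**Figure D2:**
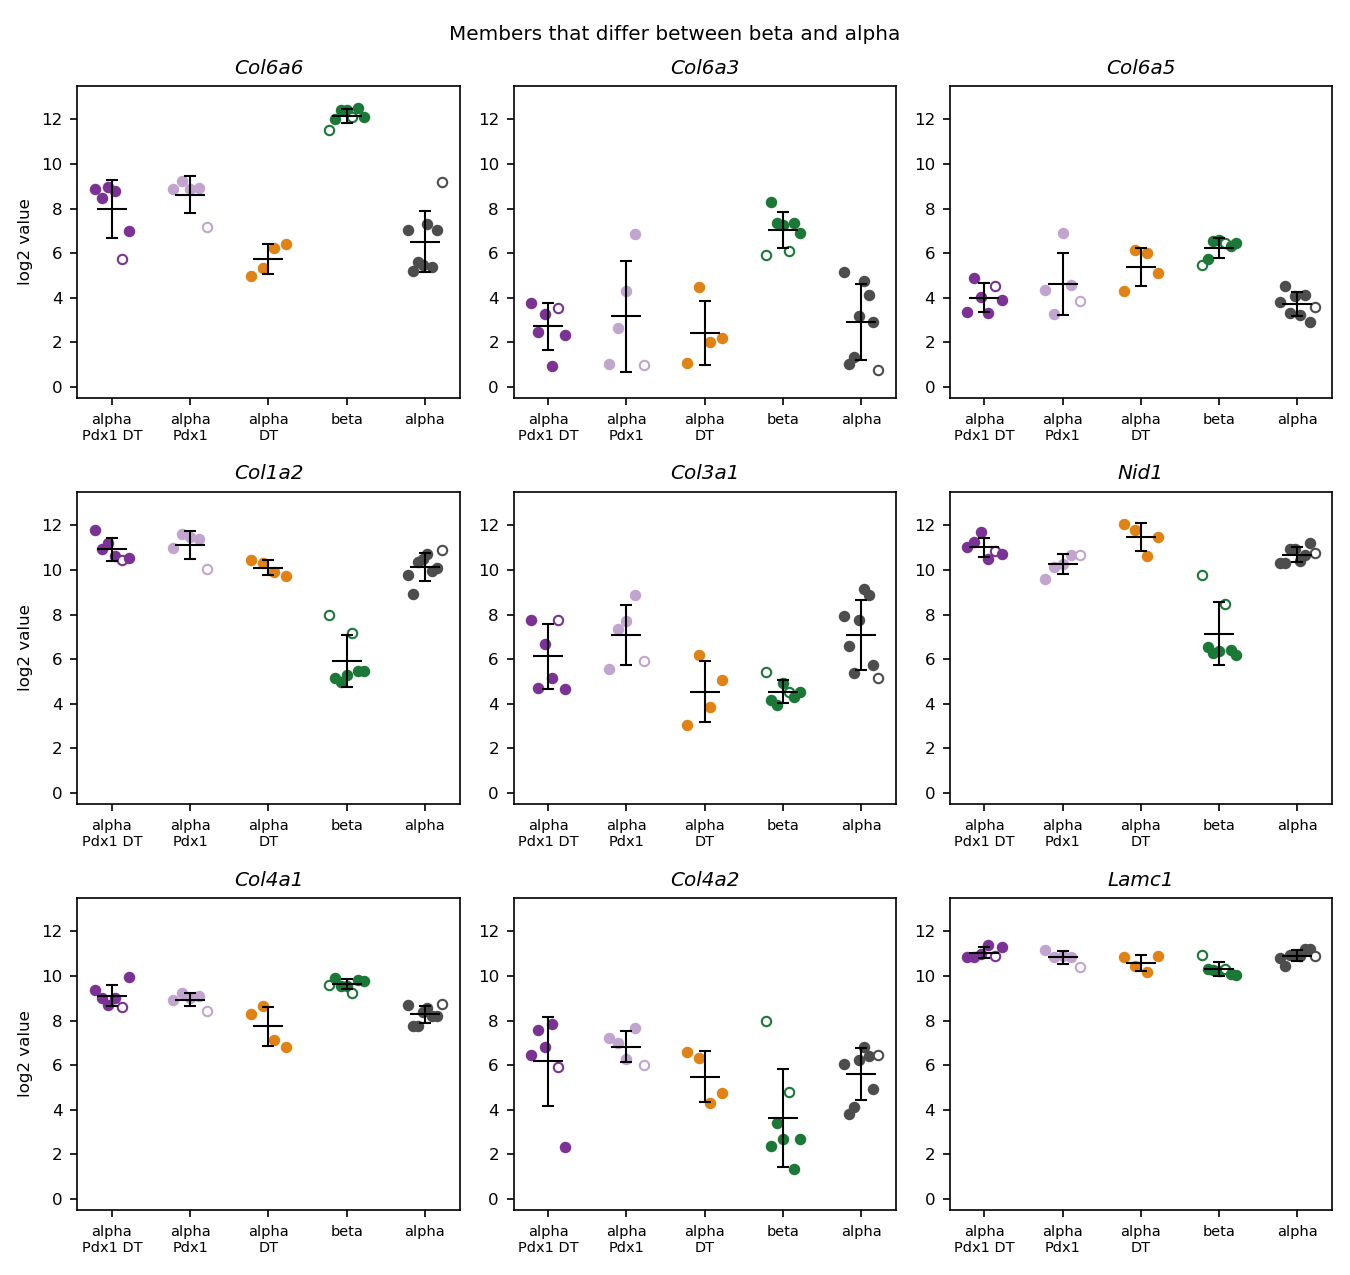
Log2 values (vertical axes) of 9 members by library in the 5 groups (horizontal axis). Points are libraries, open symbols are the 5 libraries named in the text as standing apart, and bars are the mean ± SD. Col6a6, Col6a3, Col6a5 and Col4a1 are higher in beta than in alpha libraries, and Col1a2 and Nid1 are lower, without overlap of the groups. The genes shown were chosen as called members, and how often all genes lack overlap was not counted.

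The remaining called members were collagens of other classes. Col28a1, a von Willebrand domain collagen like collagen VI, rose by 2.35 ± 0.57 on the log2 scale (limma, adjusted p = 0.00149), between 3.67 and 5.66 in beta libraries and 1.40 and 4.25 in alpha libraries. Of the 6 libraries in which it reached 5, 5 were beta libraries, so it was tested only through them. Col9a3, a chain of the fibril-associated collagen IX, rose by 1.68 ± 0.66 (limma, adjusted p = 0.0471) and passed in 4 of 15 fits that left out 1 library. It reached 5 in 7 libraries, of which 4 were beta libraries, and was likewise tested only through them. It was not called without the 5 libraries (1.74 ± 0.79; limma, adjusted p = 0.0968). Col19a1, a fibril-associated collagen of basement membrane zones, was called as higher only in the fit without them (1.25 ± 0.48; limma, adjusted p = 0.0471), against 0.35 (adjusted p = 0.741) with all libraries. Col26a1 had 5.26, 1.17, 2.06, 1.03, 6.42, 3.05 and 2.16 in beta libraries 1 to 7, against 4.92, 7.29 and 8.55 (lowest, median, highest) in alpha libraries. Only beta 1 and beta 5 overlapped the alpha group, at its lowest library, alpha 8. Its log2 fold change was -4.09 ± 0.68 (limma, adjusted p = 1.62e-05), and -5.53 ± 0.50 without the 5 libraries. Col8a1, a short-chain collagen named after its values were seen, had a log2 fold change of -1.48 ± 0.46 (limma, adjusted p = 0.0116).

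Fn1 (fibronectin), Sparc (a collagen-binding matricellular protein) and Fbn1 (fibrillin of microfibrils) did not pass. Fn1 had 4.12, 4.58 and 7.66 in beta libraries and 1.67, 6.21 and 10.11 in alpha libraries (limma, adjusted p = 0.319). Sparc had 4.76, 5.65 and 10.39 in beta libraries and 5.15, 7.67 and 10.27 in alpha libraries (limma, adjusted p = 0.334). The spread within each group was wider than the distance between them, with beta 1 and alpha 5 at the top. Fbn1 had a log2 fold change of -1.68 (limma, adjusted p = 0.064). With the 5 libraries left out, Sparc passed, with a log2 fold change of -2.25 ± 0.67 (limma, adjusted p = 0.0111).

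Markers of other cells moved with some of these values. The mean log2 value of the 10 measured mesenchymal markers, of 17 listed (fibroblast, stellate cell and pericyte genes), had a lowest, median and highest of 3.47, 4.21 and 5.26 in beta libraries and 2.71, 4.84 and 6.99 in alpha libraries. Of these, Notch3 rose and Dcn and Dpt fell in beta cells (median of the list -0.45), while Lum, Mgp and Dpt were below 5 in every beta library. The highest library was alpha 5 (6.99), which also had the highest Fn1, Sparc and Col3a1 of the alpha group. Among beta libraries the highest was beta 1 (5.26), which had the highest beta values of Fn1, Sparc, Col3a1 and Col1a2. In the alpha group, Col1a2 was highest in alpha 8 (10.91, against 10.71 in alpha 5), the library with the lowest mesenchymal mean (2.71). Beta 1 and beta 5, highest in Col1a2 among beta libraries, also had Gcg at the maximum. Their alpha-cell marker means were the highest of the beta group (12.67 in beta 1, group median 9.99). The mean of the 4 measured endothelial markers ranged from 4.81 to 7.99 in beta and from 4.05 to 6.42 in alpha libraries, and Pecam1 was 8.94 in beta 1. Ramp2 was the 1 of these 4 that passed, and it was higher in beta cells. Of 12 leukocyte markers, Fcer1g and C1qa were higher and none was lower (median 1.55), and their mean had a lowest, median and highest of 5.70, 6.25 and 10.29 in beta libraries, with beta 1 at the top, and 4.17, 4.97 and 6.48 in alpha libraries. Of 6 delta and PP cell markers, Rbp4, Ppy and Pyy were lower (median of the 6 -1.84), and Sst, Hhex and Ghsr were not called. The mean of the 6 had 8.59, 9.79 and 13.40 in beta libraries and 10.83, 11.80 and 12.78 in alpha libraries. Rbp4, Ppy and Pyy were high in every alpha library (Ppy 14.97 to 17.92), so they do not single out delta or PP cells. Of 12 acinar markers 1 was higher, and of 10 ductal markers 2 were higher and 2 lower. Their part in the member values was not tested. In bulk samples, fewer cells of a type and less RNA per cell cannot be told apart.

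**Figure D3:**
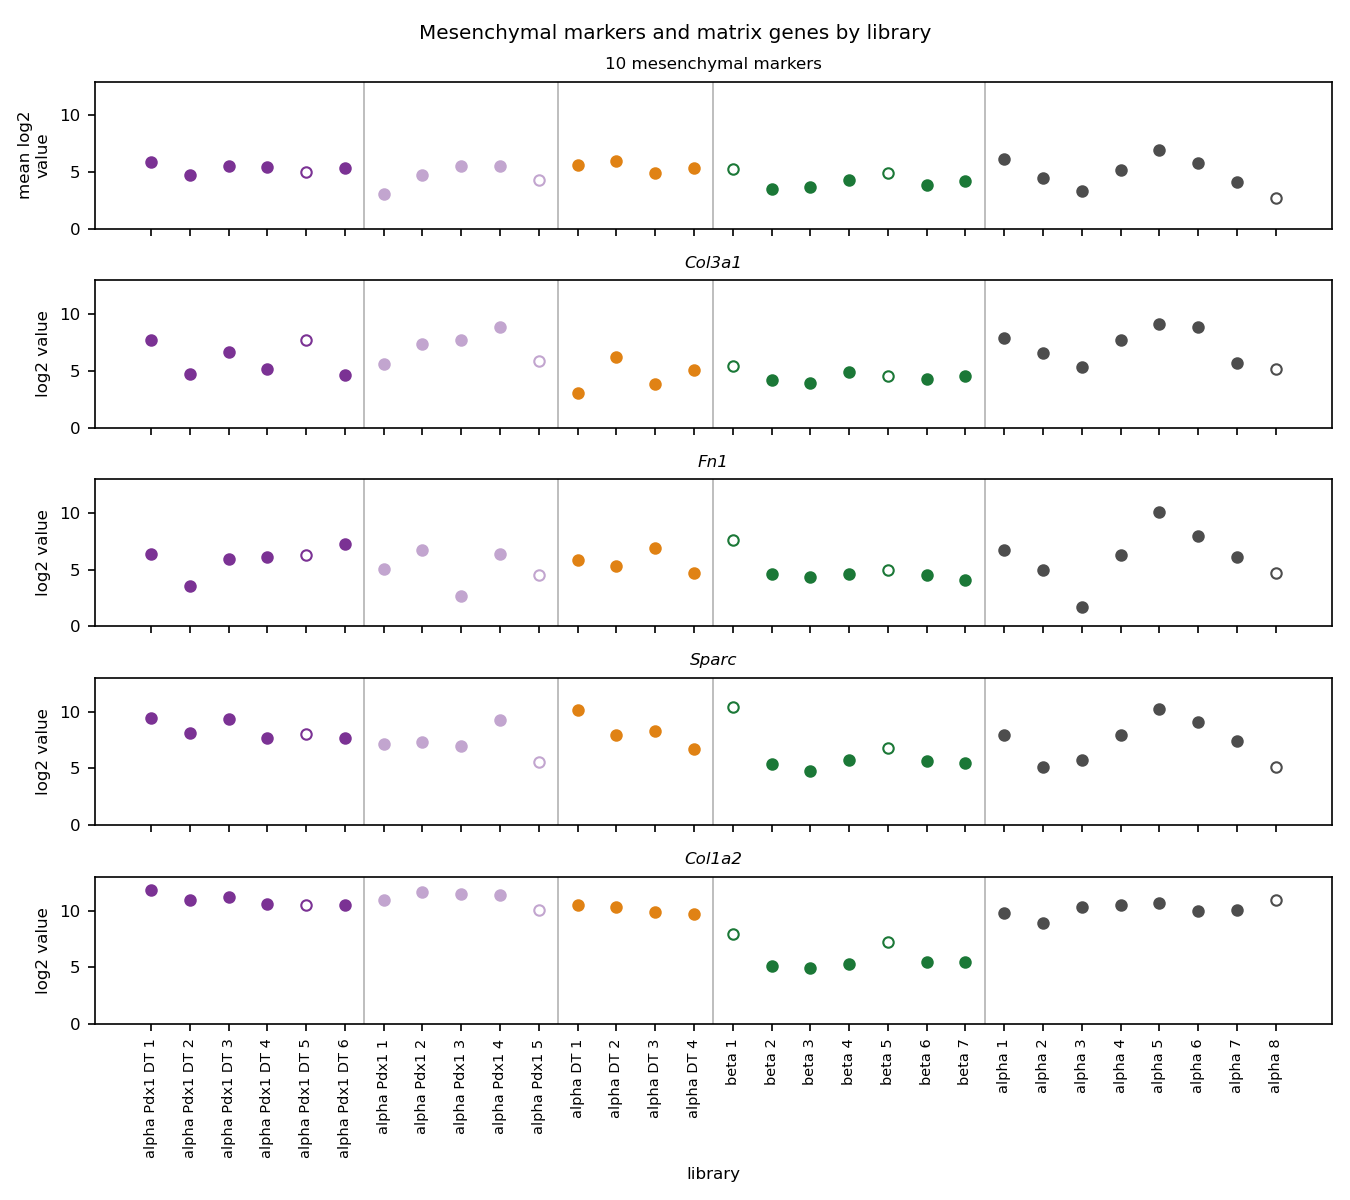
Mean log2 value of 10 mesenchymal markers (top panel) and log2 values of Col3a1, Fn1, Sparc and Col1a2 (lower panels) in each of the 30 libraries (horizontal axis, ordered by group); open symbols are the 5 libraries that stand apart. Alpha 5 is the highest library for the markers (6.99) and has Fn1 at 10.11 and Sparc at 10.27, and beta 1 has the highest marker mean of the beta group (5.26).

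Genes that work with these members are given by list, beside the 34.5% of all tested genes that passed in this comparison. Of 22 other basement membrane and matrix proteins tested, 6 were higher and 4 lower in beta cells (median log2 fold change -0.15), with Emilin1, an elastic-fibre glycoprotein, at 6.0 ± 0.62 and Egflam (pikachurin, a dystroglycan ligand) at -3.81 ± 0.39. Of 22 genes for collagen folding, modification and crosslinking, 5 were higher and 5 lower (median 0.13), among them the crosslinking oxidase Loxl2 at 4.40 ± 0.62 and the collagen galactosyltransferase Colgalt2 at -3.23 ± 0.32. Of 21 integrins and other matrix receptors, 6 were higher and 2 lower (median 0.20), with the hyaluronan receptor Cd44 at 4.42 ± 0.65 and the syndecan Sdc2 at -2.03 ± 0.17. Of 14 matrix proteases and inhibitors, none was higher and 6 were lower (median -0.62), with Adamts9, a secreted metalloprotease, at -2.57 ± 0.27. These values are log2 fold changes ± SE of genes that passed in limma, the lists were chosen with earlier results known, and the called shares of the matrix, folding, receptor and protease lists (10 of 22, 10 of 22, 8 of 21 and 6 of 14) were not tested against that of all genes.

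Alpha Pdx1 cells differed from alpha cells in few members. Col19a1 and Col6a6 rose and Lama5 fell relative to alpha cells, and the other 28 tested members did not pass. The 3 of 31 called members (2 higher, 1 lower) stood beside 4.33% of all genes (2.36% higher, 1.98% lower), and the median log2 fold change was -0.09, against 0.03 over all genes.

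Col19a1 had 6.68, 5.96, 6.32, 7.17 and 6.83 in alpha Pdx1 libraries 1 to 5, against 0.76, 0.83 and 4.94 (lowest, median, highest) in alpha libraries. All 5 alpha Pdx1 libraries lay above all alpha libraries, of which only alpha 8 exceeded 1.03. Its only libraries at 5 or more were 5 alpha Pdx1 and 5 alpha Pdx1 DT libraries. Col19a1 was therefore tested only through the groups where it is high. In 6 of 8 alpha libraries Col19a1 stood at the lowest value of the library, so the size of the change depends on that floor. The log2 fold change was 5.23 ± 0.78 (limma, adjusted p = 0.000756), and 1.83 (limma, adjusted p = 0.000132) with an offset of 32 on the linear scale. It passed in the 7 other fits and in 13 of 13 fits without 1 library. In beta libraries Col19a1 had 0.76, 2.06 and 2.69.

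Col6a6 had 8.88, 9.25, 8.88, 8.93 and 7.16 in alpha Pdx1 libraries 1 to 5, against 5.21, 6.32 and 9.17 in alpha libraries. The lowest of them was alpha Pdx1 5 and the highest alpha library was alpha 8, the libraries that stand apart by Pdx1, and the groups overlapped through them. Its log2 fold change was 2.10 ± 0.55 (limma, adjusted p = 0.023), with 7 of 13 fits without 1 library passing, and it was 2.84 ± 0.41 without the 5 libraries. Lama5 had 6.68, 6.48, 6.77, 6.81 and 7.20 in alpha Pdx1 libraries 1 to 5, against 7.01, 8.42 and 9.47 in alpha libraries. Only alpha Pdx1 5 lay above the lowest alpha library, alpha 8. The log2 fold change of Lama5 was -1.63 ± 0.46 (limma, adjusted p = 0.0335), and 5 of 13 fits without 1 library passed. With Rn18s-rs5 as a covariate, Col6a6 (2.22, adjusted p = 0.134) and Lama5 (-2.18, adjusted p = 0.0586) did not pass in limma.

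The promoters of these 3 genes are shown because they are the members called in alpha Pdx1 against alpha cells. Pdx1 is a homeodomain factor whose known core motif is TAAT. The sequences are from RefSeq (GRCm38.p6), all on the minus strand, written 5′ to 3′, without bases inside the GENCODE gene model. Capitals mark TAAT or GGGCGG on either strand. They cover chr1:24587473-24587687 (Col19a1), chr9:105828161-105828335 (Col6a6) and chr2:180225860-180226109 (Lama5).
Col19a1: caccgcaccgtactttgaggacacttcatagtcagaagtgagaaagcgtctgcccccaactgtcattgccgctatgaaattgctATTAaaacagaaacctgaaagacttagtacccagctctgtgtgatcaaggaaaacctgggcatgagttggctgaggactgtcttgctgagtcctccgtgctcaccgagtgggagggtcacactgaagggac
Col6a6: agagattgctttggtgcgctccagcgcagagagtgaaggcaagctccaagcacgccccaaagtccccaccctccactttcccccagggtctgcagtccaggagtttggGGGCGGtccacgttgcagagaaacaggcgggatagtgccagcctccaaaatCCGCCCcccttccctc
Lama5: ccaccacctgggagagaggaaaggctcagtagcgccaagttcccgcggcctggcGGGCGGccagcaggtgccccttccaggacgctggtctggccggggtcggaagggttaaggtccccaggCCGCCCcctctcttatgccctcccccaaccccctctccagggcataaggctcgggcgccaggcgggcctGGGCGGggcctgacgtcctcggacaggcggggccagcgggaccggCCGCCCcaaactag
Windows of 250 bases before each RefSeq start were searched on both strands for TAAT, the CCAAT box, the GC box GGGCGG and the TATA box TATAAA. Of the 38 members, 31 had an entry. For Col19a1 and Col6a6 the searched windows also held bases inside the GENCODE gene model, which are left out of the 215 and 175 bases printed. TAAT occurred in 12 of the 31 and in 54.9% of 32851 promoters, and once in Col19a1 but not in Col6a6 or Lama5. CCAAT occurred in 8 of the 31 (33.8% of all), GGGCGG in 18 (32.7%) and TATAAA in 4 (12.4%). These are letter matches only.

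Other members did not pass in alpha Pdx1 against alpha cells. Of 13 tested members named in every comparison, the 12 that did not pass ranged from -1.59 (Lamb1, adjusted p = 0.09) to 1.23 (Col4a2) in limma. Without the 5 libraries, 7 members passed beside 6.61% of all genes. The additional ones were Col1a2, which rose by 1.32 ± 0.27, and Lamb1 (-2.14 ± 0.41), Col26a1 (-2.28 ± 0.54) and Lama2 (-1.55 ± 0.43), which fell. Among the companion lists, matrix proteins had 3 higher and 1 lower of 22, with Efemp1 (fibulin 3) at 3.01 ± 0.65, Vcan (versican) at 2.53 ± 0.59 and Mfap2, a microfibril protein, at -1.42 ± 0.38. Folding genes had 2 higher of 22, with Bmp1, the protease that trims procollagens, at 1.99 ± 0.50, and receptors had 2 higher of 21, with the integrin chains Itgb8 at 2.52 ± 0.46 and Itga6, a laminin receptor chain, at 1.57 ± 0.38. None of 14 proteases passed.

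**Figure D4:**
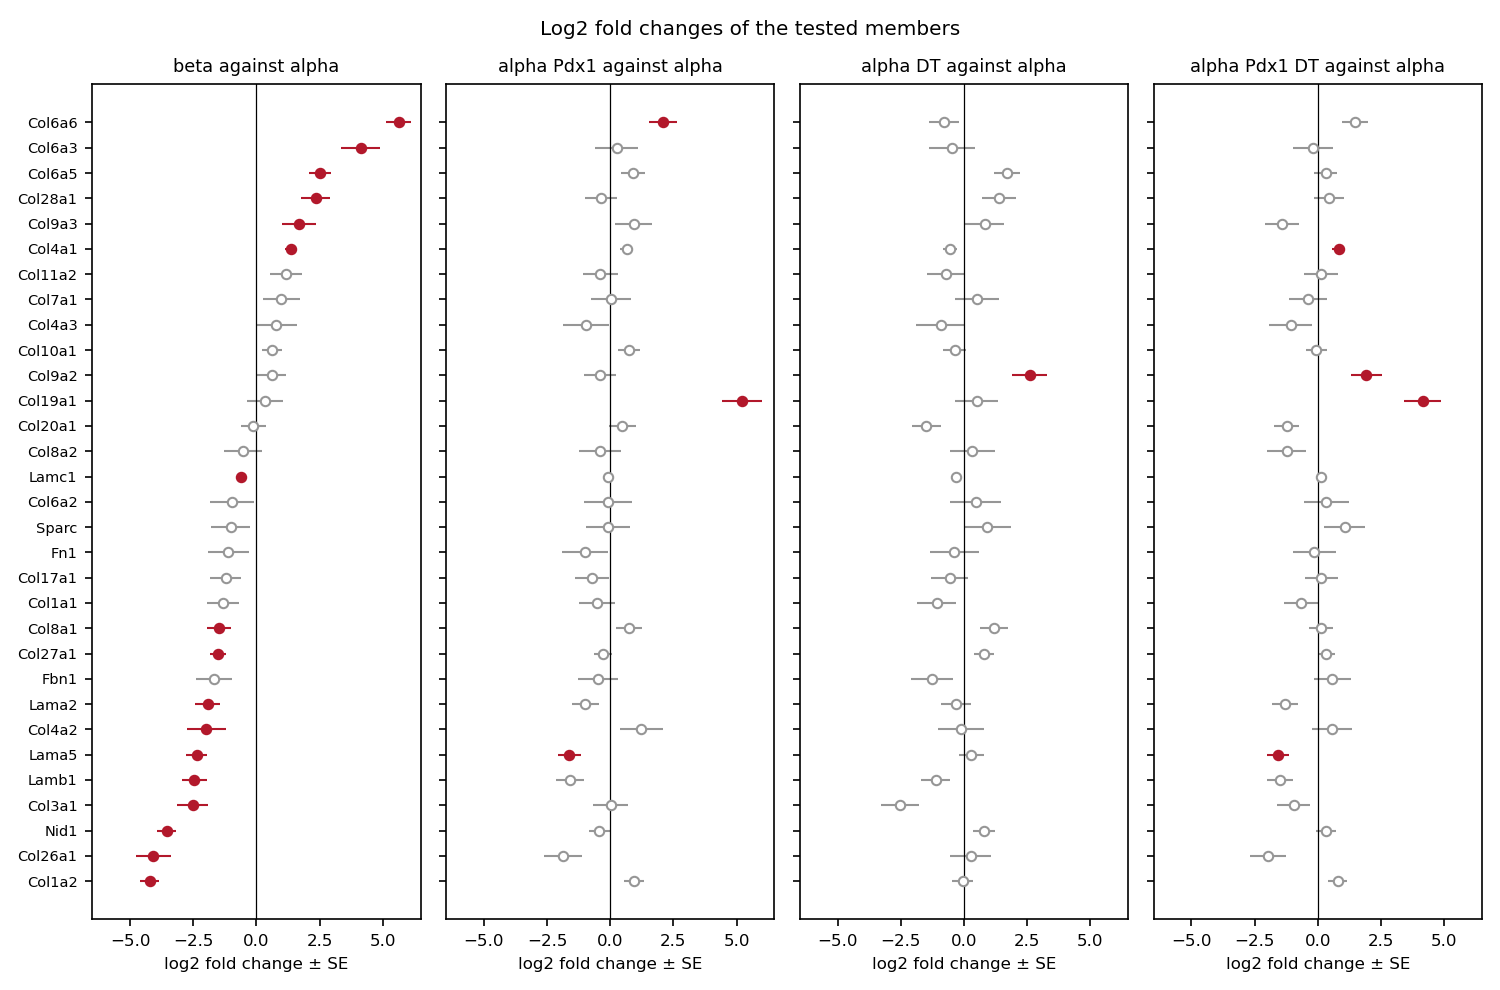
Log2 fold changes ± SE (horizontal axes) of the 31 tested members (rows, ordered by the difference between beta and alpha) in beta, alpha Pdx1, alpha DT and alpha Pdx1 DT cells, each against alpha cells. Red filled points passed the adjusted p of 0.05. The 4 panels share the alpha libraries; 17, 3, 1 and 4 members passed in them.

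Alpha DT cells differed from alpha cells in 1 of 31 tested members (3.23%). Of all genes, 3.26% passed (1.57% higher, 1.7% lower), a similar share. The member was Col9a2, a chain of collagen IX, which was higher in alpha DT cells. It had 5.80, 6.56, 6.80 and 6.36 in alpha DT libraries 1 to 4, against 2.69 to 4.36 in alpha libraries. Every alpha DT library lay above every alpha library. Col9a2 had a log2 fold change of 2.60 ± 0.68 (limma, adjusted p = 0.0315), passing in 8 of 12 fits without 1 library. It reached 5 in 10 libraries, of which 4 were alpha DT and 4 were alpha Pdx1 DT libraries. Col9a2 was therefore tested only through the toxin groups, where it is high, which also holds for its calls in the comparisons below. Col3a1 came close, with 3.06, 6.19, 3.85 and 5.06 in alpha DT libraries against 5.13 to 9.16 in alpha libraries (log2 fold change -2.53 ± 0.74; limma, adjusted p = 0.0512). Col6a5, named after its values were seen, had 4.29, 6.14, 6.01 and 5.12 in alpha DT libraries against 2.92 to 4.52 in alpha libraries (1.69 ± 0.52; limma, adjusted p = 0.0596). The 13 tested members named in every comparison ranged from -2.53 (Col3a1) to 0.93 (Sparc). With the 5 libraries left out, Col3a1 (-2.81 ± 0.72; limma, adjusted p = 0.0274) and Lamb1 (-1.44 ± 0.41; limma, adjusted p = 0.0479) also passed, beside 3.26% of all genes. Of the companion lists, only Mfap2 (1.91 ± 0.41; limma, adjusted p = 0.0101) and Cd44 (3.59 ± 0.77; limma, adjusted p = 0.0113) passed. Of 12 leukocyte markers, 4 were higher, and their mean ranged from 6.28 to 11.14 in alpha DT and from 4.17 to 6.48 in alpha libraries; their part in the member values was not tested.

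**Figure D5:**
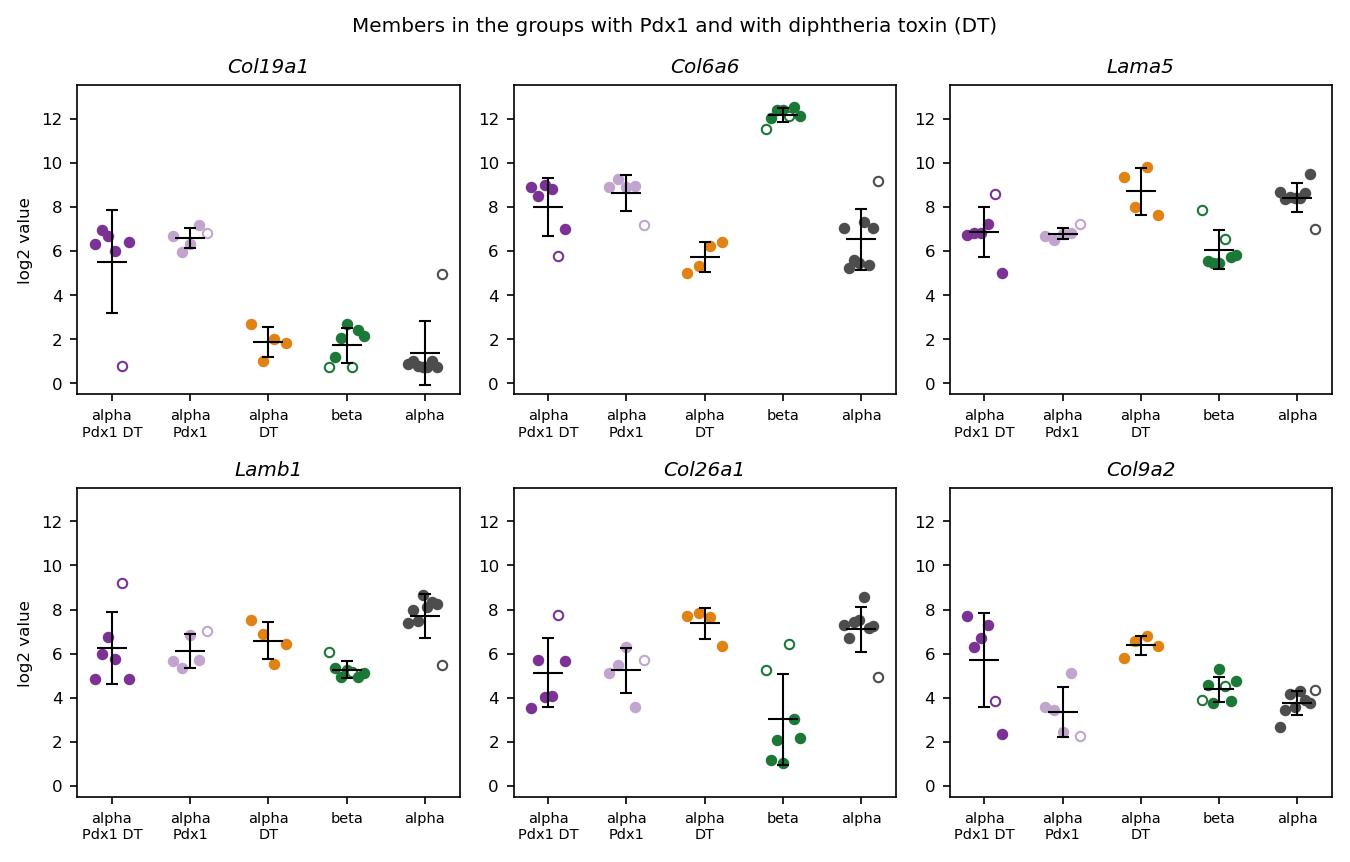
Log2 values (vertical axes) of Col19a1, Col6a6, Lama5, Lamb1, Col26a1 and Col9a2 by library in the 5 groups; bars are the mean ± SD and open symbols the 5 libraries that stand apart. Col19a1 is at 5.96 or more in the Pdx1 libraries except alpha Pdx1 DT 5 (0.80), and Col9a2 is at 5.80 or more in the 4 alpha DT libraries.

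Alpha Pdx1 DT and alpha Pdx1 cells differed in 2 members. Relative to alpha Pdx1, Col9a2 rose and Col9a3 fell, a share of 6.45% of the 31 tested beside 9.22% of all genes (4.83% higher, 4.39% lower). Col9a2 had 2.35, 6.51 and 7.71 (lowest, median, highest) in alpha Pdx1 DT libraries, against 3.59, 3.43, 2.43, 5.11 and 2.25 in alpha Pdx1 libraries 1 to 5. The groups overlapped, because alpha Pdx1 DT 5 (3.85) and 6 (2.35, the lowest value of that library) were low. Its log2 fold change was 2.34 ± 0.68 (limma, adjusted p = 0.0281). Col9a3 ranged from 0.90 to 3.32 in alpha Pdx1 DT and from 4.11 to 4.67 in alpha Pdx1 libraries, without overlap, with a log2 fold change of -2.35 ± 0.77 (limma, adjusted p = 0.0499). It was near the bottom of the scale in several libraries and did not pass with an offset of 32 (-0.52; limma, adjusted p = 0.212). Of 11 fits without 1 library, 4 called Col9a2 and 2 called Col9a3. With Rn18s-rs5 as a covariate, Col9a2 had 2.81 and Col9a3 -1.86, and neither passed (limma, adjusted p = 0.995 for each). Rn18s-rs5 was higher in every alpha Pdx1 DT library than in every alpha Pdx1 library. That fit therefore cannot separate the covariate from the comparison. Without the 5 libraries, 3 members passed beside 7.65% of all genes, namely Col9a2, Nid1 (0.87 ± 0.27) and, lower, Col20a1 (-2.01 ± 0.60), and Col9a3 did not pass. The 13 tested members named in every comparison ranged from -0.96 (Col3a1) to 1.15 (Sparc) with all libraries. Of the companion lists, the 1 matrix protein called of 22 was Mfap2, which rose by 2.47 ± 0.41 (limma, adjusted p = 0.0016). The 2 receptors called of 21 were Bcam, a laminin receptor, and the syndecan Sdc4, which rose by 1.29 ± 0.39 and 1.27 ± 0.36 (limma, adjusted p = 0.0359 and 0.0272). Of 22 folding genes P4ha1, a subunit of collagen prolyl hydroxylase, fell (-0.73 ± 0.22; limma, adjusted p = 0.0341), and none of 14 proteases passed. Of 12 leukocyte markers, 3 were higher, and their mean ranged from 4.08 to 11.07 in alpha Pdx1 DT and from 3.92 to 4.99 in alpha Pdx1 libraries, which was not tested against the members.

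Alpha Pdx1 DT cells had 3 of 31 members higher than alpha DT cells and none lower. This stood beside 2.1% of all genes (1.78% higher, 0.319% lower). Col19a1 had 0.80, 6.35 and 6.93 (lowest, median, highest) in alpha Pdx1 DT libraries, against 2.67, 0.99, 2.00 and 1.81 in alpha DT libraries 1 to 4. Only alpha Pdx1 DT 5 was as low as the alpha DT libraries. The log2 fold change was 3.65 ± 0.89 (limma, adjusted p = 0.0254), and 4.60 ± 0.55 without the 5 libraries. Col4a1 had 8.62, 9.03 and 9.96 in alpha Pdx1 DT libraries, against 8.31, 8.67, 7.14 and 6.83 in alpha DT libraries 1 to 4, with only alpha Pdx1 DT 5 below alpha DT 2. It rose by 1.38 ± 0.30 (limma, adjusted p = 0.0119) and passed in 9 of 10 fits without 1 library. Col6a6 had 8.89, 8.48, 8.99, 8.80, 5.76 and 7.0 in alpha Pdx1 DT libraries 1 to 6, against 4.98, 5.32, 6.21 and 6.39 in alpha DT libraries 1 to 4. It rose by 2.26 ± 0.62 (limma, adjusted p = 0.0489). Fits without 1 library called Col19a1 in 3 of 10 and Col6a6 in 2 of 10. Lama5 had a log2 fold change of -1.84 (limma, adjusted p = 0.0527). With the 5 libraries left out, Lama5 (-2.18 ± 0.42) and Col26a1 (-2.78 ± 0.57) joined, making 5 members beside 5.73% of all genes. Of the companion genes, Bmp1 (2.49 ± 0.57), the laminin-like Ntn4 (1.20 ± 0.32) and the protease Mmp16 (1.33) rose and Mmp19 (-1.62) fell.

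Alpha Pdx1 DT and alpha cells differed in 4 members, 3 higher and 1 lower, beside 7.81% of all genes (4.06% higher, 3.75% lower). Col19a1 (4.15 ± 0.74; limma, adjusted p = 0.00459), Col9a2 (1.93 ± 0.60; adjusted p = 0.0439) and Col4a1 (0.83 ± 0.25; adjusted p = 0.0374) rose. Lama5 fell by 1.56 ± 0.43 on the log2 scale (limma, adjusted p = 0.0259), with 6.71, 6.80, 6.83, 7.24, 8.58 and 4.99 in alpha Pdx1 DT libraries 1 to 6. The highest of these was alpha Pdx1 DT 5, which lay within the alpha range of 7.01 to 9.47, as did alpha Pdx1 DT 4. None of the 4 passed with Rn18s-rs5 as a covariate or in a fit of these groups alone. Without the 5 libraries 10 members passed, beside 20.3% of all genes. Those higher were Col19a1 (5.61), Col9a2 (2.38), Col6a6 (2.29), Col4a1 (0.99) and Col1a2 (0.98), and those lower were Col26a1 (-2.81), Lamb1 (-2.39), Lama5 (-2.10), Lama2 (-1.82) and Col20a1 (-1.72). Of the companion lists, matrix proteins had 4 higher of 22, among them Efemp1 (2.94 ± 0.61) and Vcan (2.25 ± 0.56), folding genes had 1 of 22, Bmp1 (2.23 ± 0.48), and receptors had 2 of 21, Itgb8 (1.47 ± 0.43) and the integrin chain Itgb1 (0.72 ± 0.21). None of these lists had a lower call, and none of 14 proteases passed. One of 12 leukocyte markers was higher (C1qa), and their mean ranged from 4.08 to 11.07 in alpha Pdx1 DT and from 4.17 to 6.48 in alpha libraries; its part in the member values was not tested. This comparison shares its alpha libraries with those of beta, alpha Pdx1 and alpha DT cells.

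Against beta cells, alpha Pdx1 DT cells differed in 14 of 31 members, 9 higher and 5 lower, where 26.3% of all genes passed (12.9% higher, 13.4% lower). The median log2 fold change of the members was 0.80, beside -0.04 over all genes. Col1a2 had 10.46, 10.78 and 11.81 in alpha Pdx1 DT libraries and 4.96, 5.45 and 7.96 in beta libraries, without overlap (5.01 ± 0.39; limma, adjusted p = 2.17e-11). Nid1 ranged from 10.52 to 11.68 in alpha Pdx1 DT and from 6.17 to 9.76 in beta libraries, also apart (3.87 ± 0.41; limma, adjusted p = 1.42e-08). Col19a1 (3.80 ± 0.76), Col4a2 (2.55 ± 0.82), Fbn1 (2.26 ± 0.76), Col26a1 (2.11 ± 0.74) and Lamc1 (0.74 ± 0.17) were also higher. Fbn1 reached 5 in only 4 libraries, 2 of them alpha Pdx1 DT libraries, so without that group it would not have been tested. It stood at the lowest value of the library in 3 of 7 beta libraries and passed in 9 of 13 fits without 1 library. Col26a1 did not pass with an offset of 32 (0.67; limma, adjusted p = 0.199). Omitting the 5 libraries left 16 members called, beside 25.5% of all genes. Sparc (3.07 ± 0.73) then passed as higher and Col20a1 (-1.66 ± 0.57) as lower, and the log2 fold changes of Col1a2 (5.77), Nid1 (4.69), Col4a2 (3.70) and Col26a1 (2.71) were larger. Of 10 mesenchymal markers, Dcn and Dpt were higher and Notch3 lower (median 1.30), and their mean ranged from 4.72 to 5.94 in alpha Pdx1 DT and from 3.47 to 5.26 in beta libraries. Of 6 delta and PP cell markers, Rbp4, Ppy and Pyy were higher (median of the 6 2.42), and Sst, Hhex and Ghsr were not called. The mean of the 6 ranged from 11.20 to 14.36 in alpha Pdx1 DT and from 8.59 to 13.40 in beta libraries. Rbp4 (13.39 to 15.11), Ppy (14.97 to 17.92) and Pyy (16.14 to 22.57) were high in alpha libraries too, so they do not single out delta or PP cells. The part of other cells in the member values was not tested.

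The collagen VI chains Col6a6, Col6a3 and Col6a5 were below their beta-cell level. Col6a2 averaged 3.02 ± 1.26 in alpha Pdx1 DT (SD, n = 6) and 1.71 ± 0.83 in beta libraries (SD, n = 7) and was not called. Col6a1, which was not tested, averaged 3.69 in alpha Pdx1 DT and 1.73 in beta libraries. Col6a6 ranged from 5.76 to 8.99 in alpha Pdx1 DT and from 11.54 to 12.50 in beta libraries (-4.17 ± 0.54; limma, adjusted p = 4.44e-07). Col6a3 ranged from 0.92 to 3.78 in alpha Pdx1 DT and from 5.92 to 8.28 in beta libraries (-4.31 ± 0.82; limma, adjusted p = 0.00013). Col6a5 ranged from 3.31 to 4.91 in alpha Pdx1 DT and from 5.45 to 6.61 in beta libraries (-2.21 ± 0.47; limma, adjusted p = 0.000502). The ranges of these 3 did not overlap. They were chosen as called members, and how often all genes lack overlap was not counted. Col9a3 (-3.09 ± 0.71) and Col28a1 (-1.90 ± 0.61) were also lower, and both were tested only through the beta libraries. Col9a3 stood at the lowest value of the library in 3 of 6 alpha Pdx1 DT libraries. With an offset of 32 on the linear scale, Col9a3 had -0.88 and Col28a1 -0.70 (limma, adjusted p = 0.00754 and 0.00399). Col4a1 did not pass (-0.52; limma, adjusted p = 0.139), nor did Sparc (2.08; adjusted p = 0.0663) or Col3a1 (1.58; adjusted p = 0.0822). Of the companion lists, beside 26.3% of all genes, matrix proteins had 6 higher (Vcan 3.01, Efemp1 2.87) and 6 lower (Emilin1 -4.97, Npnt -4.19), folding genes 6 higher (Loxl1 3.33, Plod2 3.10) and 3 lower (Loxl2 -2.66, Mia3 -1.37), receptors 3 higher (Itgb6 1.69, Sdc2 1.66) and 4 lower (Cd44 -2.46, Itga6 -1.88), and proteases and inhibitors 6 higher (Timp2 2.77, Mmp14 2.39) and none lower.

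The interaction asks whether toxin had another effect in Pdx1-expressing alpha cells than in other alpha cells. No member of 31 and no gene of 16633 passed (limma); 4 members and 1527 genes had an unadjusted p under 0.05. The largest member estimate was Col9a3, at -3.17 ± 1.10 (limma, unadjusted p = 0.00686, adjusted p = 0.423), named after its values were seen.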

How the data were processed

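The data are bulk RNA-seq of FACS-sorted mouse islet cells, 30 libraries in 5 groups, and groups were taken from the submitters' genotype labels. GSNAP and the mouse build GRCm38 are named in the submitters' processing notes; their settings, the counting rule and the normalization are not stated there. The authors deposited values that are read here as log2 expression after quantile normalization, for 17775 genes, because all libraries share their quartiles and maximum; no source states this scale. Read depth is therefore unknown, and the number of libraries limits the precision. Every column of values matched a labelled sample.

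Genes at 5 or more in at least 4 libraries were kept (16633 tested, 1142 removed). One mean per group was fitted to all 30 libraries with limma 3.58.1 in R 4.3.3 (intensity trend, robust variances), two-sided, with Benjamini-Hochberg adjustment over the 16633 genes within each comparison and a threshold of 0.05. The procedure was tested on simulated data. Members, companion lists, markers and the 5 libraries left out in an alternative were chosen with earlier results of these data known. Text names 16 fixed members, the 6 highest and 6 lowest called members per comparison, and up to 2 risers and 2 fallers per companion list; other names are said to be chosen after their values were seen. Lamb2, a fixed name, was not analysed here, and 1 further gene that meets the description is not reported here. Gene positions are from GENCODE M21 (GRCm38) and promoters from RefSeq (GRCm38.p6). Alternatives covered filters, an offset of 32 on the linear scale, library weights, fits of single comparisons, an Rn18s-rs5 covariate, omission of the 5 libraries and of each library. Figures used Python 3.11.15 with matplotlib 3.10.9. Raw reads were not analysed here.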

Additional observations from a re-analysis of the deposited data

Results flagged for a closer look

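Over 24 members and 5 groups, 120 groups of libraries were searched for a single library far from the rest of its group by Dixon's criterion, and 13 were found; chance gives about 1 in 20 groups. Several were among the libraries that stand apart by Pdx1 or Gcg. Col19a1 was 0.80 in alpha Pdx1 DT 5, the lowest value of that library, against 6.0 to 6.93 in the other alpha Pdx1 DT libraries. It was 4.94 in alpha 8, against 0.76 to 1.03 in the other alpha libraries. In alpha 8, Lama5 was 7.01 (others 8.35 to 9.47) and Lamb1 was 5.49 (others 7.41 to 8.67). Col6a6 was 7.16 in alpha Pdx1 5, against 8.88 to 9.25 in the other alpha Pdx1 libraries. In beta 1, Fn1 was 7.66 (others 4.12 to 4.94), Sparc was 10.39 (others 4.76 to 6.83), Lamb1 was 6.06 (others 4.93 to 5.36) and Lamc1 was 10.96 (others 10.05 to 10.31).

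The rest lay in other libraries. Col4a2 was 2.35 in alpha Pdx1 DT 6, the lowest value of that library, against 5.93 to 7.85 in the other alpha Pdx1 DT libraries. In the same group, Fn1 was 3.59 in alpha Pdx1 DT 2 (others 5.97 to 7.23). In the alpha DT group, Col26a1 was 6.33 in alpha DT 4 (others 7.67 to 7.84) and Col27a1 was 11.45 in alpha DT 3 (others 10.44 to 10.49).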

How the results depend on the processing

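The alternatives were chosen with earlier results known. No called member reversed its direction in any of them. Numbers of called members that an alternative moved beyond 1.5 times, with the range on leaving out 1 library, were as follows, and the cause was not tested. With all libraries 1 member passed in alpha DT against alpha, 0 with library weights and 3 without the 5 libraries that stand apart; leaving out 1 library gave 0 to 2 (0 without alpha DT 3, alpha 1 or alpha 2). In alpha Pdx1 against alpha, 3 became 1 with an Rn18s-rs5 covariate, 5 with weights and 7 without the 5 libraries; leaving out 1 library gave 1 to 4 (1 without alpha Pdx1 2, 3 or 4, or alpha 3, 4 or 6). In alpha Pdx1 DT against alpha Pdx1, 2 became 0 with the covariate and 1 in a fit of these groups only or with an offset of 32; leaving out 1 library gave 0 to 3 (0 without alpha Pdx1 DT 1, 3 or 4, or alpha Pdx1 2, 3 or 5). In alpha Pdx1 DT against alpha DT, 3 became 1 with the covariate, 0 with these groups only or with weights, and 5 without the 5 libraries; leaving out 1 gave 0 (alpha DT 3) to 5 (alpha Pdx1 DT 5). In alpha Pdx1 DT against alpha, 4 became 0 with the covariate or these groups only, 8 with weights and 10 without the 5 libraries; leaving out 1 gave 1 (alpha Pdx1 DT 1) to 9 (alpha Pdx1 DT 5), and 7 without alpha 8. In alpha Pdx1 DT against beta, 14 became 24 with weights, and leaving out 1 library moved it by less than 1.5 times (11 to 18), as in beta against alpha (15 to 18, from 17). The interaction stayed at 0. Over single members, 4610 alternative values kept their direction and their side of the threshold, 140 lost their call, 90 gained one and 265 that were not called changed sign. No paired analysis was possible because the labels give no replicate numbers. Depth is unknown, and members near the lowest value of a library have fold changes that depend on that floor.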
